A study of Mus musculus with 19 samples.

Results

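Ketone body synthesis and export was followed in mouse liver through 4 genes, chosen by symbol: Bdh1, Acat1, Slc16a1 and Slc16a6, of 24421 gene symbols in the count table. All 4 were among the 13293 genes that passed the filter on low counts and were tested. The series sequenced liver RNA of mice on a purified normal diet given an antisense oligonucleotide (ASO), which pairs with a chosen RNA and lowers it, 2 times a week for 3 weeks. The ASO was directed at PLIN5 (perilipin 5, a protein on the surface of lipid droplets) or was a control ASO. After an overnight fast, livers were taken at once or after 4 h of re-feeding. The groups were 5 re-fed PLIN5 ASO, 5 re-fed control ASO, 5 fasted PLIN5 ASO and 4 fasted control ASO libraries, the last numbered 1, 3, 4 and 5. The sources used here give no strain, sex or age. They name 1 oligonucleotide against PLIN5, so less Plin5 and other actions of that oligonucleotide cannot be told apart. Whether replicates come from separate animals is not in the labels. Each library was taken as 1 mouse, and p-values measure the spread between these libraries.

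During a fast the liver oxidises fatty acids in mitochondria and turns the acetyl-CoA into acetoacetate and 3-hydroxybutyrate, the ketone bodies that brain, heart and muscle burn in place of glucose. Acat1 encodes mitochondrial acetoacetyl-CoA thiolase, which joins acetyl-CoA units at the entry of the pathway and also works in isoleucine breakdown. Bdh1 encodes the mitochondrial dehydrogenase of the last step, which reduces acetoacetate to 3-hydroxybutyrate. Slc16a1 encodes the monocarboxylate transporter MCT1, which carries lactate, pyruvate and ketone bodies across the plasma membrane. Slc16a6 encodes the related carrier MCT7, known in zebrafish to export 3-hydroxybutyrate from the fasted liver. Feeding lowers ketone body synthesis through insulin and through less activity of the fatty acid receptor PPAR alpha.

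Total counts per library ran from 24942147 to 66862784, the highest in re-fed PLIN5 ASO 5 and the other 18 at most 33949977. Plin5 held 3.91 to 13.1 CPM (counts per 1000000 counts of the library) in the 10 PLIN5 ASO libraries and 27.3 to 51.8 CPM in the 9 control ASO libraries. Hepatocyte markers such as Alb and Apoa1 were all detected, with a summed level of 82277 to 144086 CPM over 7 genes. The 4 libraries re-fed control ASO 3 and 5 and fasted PLIN5 ASO 3 and 5 stood apart by clock genes. Arntl, a core activator gene of the circadian clock, lay between 14.6 and 45.0 CPM in them and between 0.566 and 4.87 CPM in the other 15. Dbp, a clock output gene, lay between 1.82 and 18.9 CPM in the 4 and between 36.3 and 160 CPM in the 15. They are called clock-shifted here. Plin5 held 12.6 and 13.1 CPM in fasted PLIN5 ASO 3 and 5. Libraries 1, 2 and 4 of that group held 6.14 to 7.69 CPM of Plin5. Omitting the clock-shifted libraries therefore also omits those with the most Plin5 in fasted PLIN5 ASO. The hour of sampling is not in the labels, and the part of the clock in any result was not tested. Fasted control ASO 3 and 4 were closer to each other than any other pair within a group (chi-square of 3.28 per degree of freedom, against 19.5 for the next pair), and whether they are 2 mice is not settled by the labels.

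Levels between genes were compared on the deposited FPKM (fragments per kilobase of transcript, scaled to library depth), which allow for transcript length. Acat1 averaged 167 FPKM over the 19 libraries, Bdh1 114, Slc16a1 7.18 and Slc16a6 1.82 FPKM. The order Acat1, Bdh1, Slc16a1, Slc16a6 held in 19 of 19 libraries. The enzyme genes therefore stood far above the carrier genes in every library. The read support differed accordingly, with 11309 to 36442 counts per library for Acat1, 5303 to 21072 for Bdh1, 606 to 2402 for Slc16a1 and 43 to 354 for Slc16a6.

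**Figure D1:**
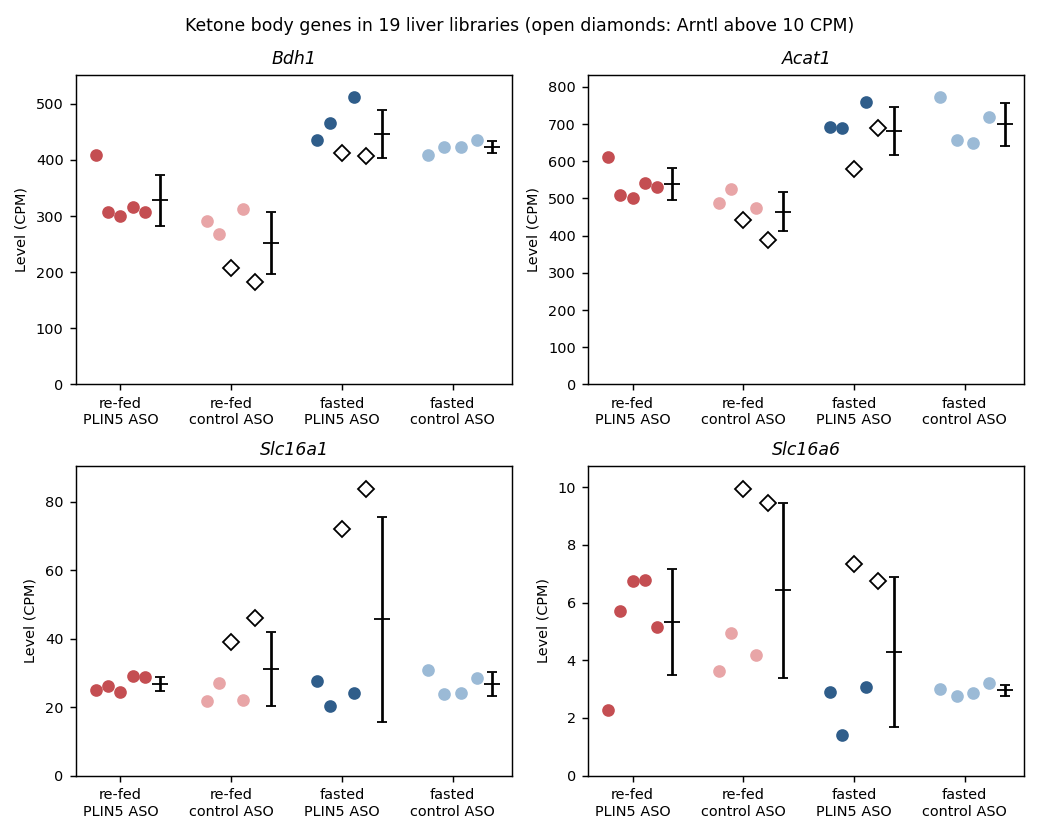
Level of Bdh1, Acat1, Slc16a1 and Slc16a6 in CPM (vertical axes from 0) in each library of the 4 groups; black bars beside the points give the group mean and SD, and open diamonds mark the 4 clock-shifted libraries. The fasted groups lie highest for Bdh1 and Acat1, and the diamonds lie highest for Slc16a1, at 39.0 to 83.8 CPM.

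Re-feeding under control ASO asks how the genes respond to a meal without the PLIN5 oligonucleotide. As described, re-fed livers were taken 4 h after the fast ended. The meal and those 4 h cannot be told apart under either ASO. Here Bdh1 and Acat1 fell and Slc16a1 and Slc16a6 did not pass the test. Of the 4 genes 2 were called lower (adjusted p under 0.05 in edgeR's quasi-likelihood test, adjusted over all genes tested by Benjamini-Hochberg) and 0 higher, where 6.82% of all genes were called lower and 6.42% higher. At an unadjusted p under 0.05 there were 3 of the 4, against 28.8% of all genes.

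Bdh1 (chromosome 16, 31422280 to 31458901, plus strand of GRCm38, 8 exons in its longest annotated transcript) held 291, 268, 207, 312 and 182 CPM in re-fed control ASO 1 to 5. In fasted control ASO 1, 3, 4 and 5 it held 410, 423, 423 and 435 CPM. All re-fed libraries lay below all fasted ones, as in 9.12% of genes tested. Bdh1 averaged 252 CPM ± 55.5 (SD, n = 5) in re-fed control ASO and 423 CPM ± 10.4 (SD, n = 4) in fasted control ASO. It fell by 40.4%, or -0.75 in log2 fold change (SE 0.13, 95% confidence interval -1.02 to -0.47, edgeR adjusted p = 0.00123). The clock-shifted re-fed control ASO 3 and 5 were the lowest of the group. Without the 4 clock-shifted libraries the log2 fold change was -0.54 (SE 0.10, adjusted p = 0.00538). An antisense gene, Gm15743, overlaps Bdh1, and no source used here states whether counting used strand.

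Acat1 (chromosome 9, 53580522 to 53610382, minus strand, 12 exons) held 488, 527, 443, 475 and 388 CPM in re-fed control ASO 1 to 5. It held 772, 656, 650 and 719 CPM in fasted control ASO 1, 3, 4 and 5. The groups did not overlap here either, and re-fed control ASO 3 and 5 were again the lowest. Acat1 averaged 464 CPM ± 52.1 (SD, n = 5) in re-fed control ASO and 699 CPM ± 57.3 (SD, n = 4) in fasted control ASO. It fell by 33.6%, or -0.59 in log2 fold change (SE 0.09, 95% confidence interval -0.79 to -0.39, edgeR adjusted p = 0.000537). Without the clock-shifted libraries the log2 fold change was -0.49 (SE 0.09, adjusted p = 0.00374).

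Slc16a6 (chromosome 11, 109450855 to 109473598, minus strand, 6 exons) held 3.62, 4.94, 9.95, 4.18 and 9.46 CPM in re-fed control ASO 1 to 5. Fasted control ASO 1, 3, 4 and 5 held 2.9997, 2.78, 2.85 and 3.22 CPM. Every re-fed library lay above every fasted one, as in 7.15% of genes tested, and the 2 clock-shifted libraries lay highest. Slc16a6 averaged 6.43 CPM ± 3.03 (SD, n = 5) in re-fed control ASO and 2.96 CPM ± 0.195 (SD, n = 4) in fasted control ASO. Its log2 difference of 1.12 (SE 0.42, 95% confidence interval 0.25 to 1.99) did not pass in edgeR's test (adjusted p = 0.0796). It passed with DESeq2 (adjusted p = 0.0320), in a fit of only the groups compared (0.0388), with the replicate number as a block (0.0443) and without fasted PLIN5 ASO 2 (0.0484), and the range over all its alternatives was 0.0320 to 0.479. Omitting the clock-shifted libraries gave 0.52 (SE 0.30, adjusted p = 0.310).

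Slc16a6 shares its locus with the genes Arsg and Amz2 on the plus strand. The overlap was taken from the whole spans of the genes, and overlap of their exons was not examined. Reads in any bases shared by exons could not be told apart if strand was not used. Arsg, which encodes a lysosomal sulfatase, held 11.5 to 24.8 CPM in re-fed control ASO and 12.3 to 17.3 CPM in fasted control ASO. Its highest values in re-fed control ASO, 23.1 and 24.8 CPM, lay in libraries 3 and 5. In fasted PLIN5 ASO, Arsg held 29.8 to 37.5 CPM in the clock-shifted libraries and 15.8 to 19.7 CPM in the rest. Amz2 held 14.8 to 17.5 CPM in re-fed control ASO and 15.1 to 18.1 CPM in fasted control ASO. The part of overlapping reads in the Slc16a6 values was not tested.

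Slc16a1 (chromosome 3, 104638668 to 104658462, plus strand, 5 exons) held 21.9, 27.0, 39.0, 22.2 and 46.0 CPM in re-fed control ASO 1 to 5. It held 31.0, 23.8, 24.0 and 28.4 CPM in fasted control ASO 1, 3, 4 and 5. The 2 clock-shifted libraries lay above every fasted one and the other 3 within or below their range. The log2 fold change was 0.22 (SE 0.34, 95% confidence interval -0.49 to 0.93, edgeR adjusted p = 0.716), and -0.18 without the clock-shifted libraries (SE 0.12, adjusted p = 0.397).

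Re-feeding under PLIN5 ASO asks whether the response to a meal is also seen with less Plin5. Again Bdh1 and Acat1 fell, with smaller estimates that were not shown to differ from those under control ASO, and neither carrier passed the test. Of the 4 genes 2 were called lower and 0 higher, against 4.14% and 4.5% of all genes in this comparison, and 3 had an unadjusted p under 0.05, against 23.5% of all genes.

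Bdh1 held 409, 308, 299, 316 and 307 CPM in re-fed PLIN5 ASO 1 to 5. It held 435, 466, 412, 511 and 408 CPM in fasted PLIN5 ASO 1 to 5. The groups overlapped through re-fed PLIN5 ASO 1 alone, which lay just above fasted PLIN5 ASO 5. Bdh1 averaged 328 CPM ± 45.9 (SD, n = 5) in re-fed PLIN5 ASO and 446 CPM ± 42.9 (SD, n = 5) in fasted PLIN5 ASO. It fell by 26.6%, or -0.45 in log2 fold change (SE 0.13, 95% confidence interval -0.71 to -0.18, edgeR adjusted p = 0.0321). The call was lost without re-fed PLIN5 ASO 2, 3, 4 or 5 and without fasted PLIN5 ASO 2 or 4, each left out alone, at log2 fold changes of -0.43, -0.41, -0.43, -0.42, -0.43 and -0.39 and adjusted p of 0.0593 to 0.0835. Without the clock-shifted libraries the log2 fold change was -0.52 (SE 0.10, adjusted p = 0.00396), and the range over all alternatives was 0.000969 to 0.0835.

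Acat1 held 612, 510, 500, 541 and 530 CPM in re-fed PLIN5 ASO 1 to 5, against 691, 689, 581, 760 and 689 CPM in fasted PLIN5 ASO 1 to 5. Re-fed PLIN5 ASO 1 lay above fasted PLIN5 ASO 3, and the groups were otherwise apart. Acat1 averaged 539 CPM ± 44.2 (SD, n = 5) in re-fed PLIN5 ASO and 682 CPM ± 64.4 (SD, n = 5) in fasted PLIN5 ASO. It fell by 21.0%, or -0.34 in log2 fold change (SE 0.09, 95% confidence interval -0.53 to -0.15, edgeR adjusted p = 0.0229). The call was lost without re-fed PLIN5 ASO 3 or fasted PLIN5 ASO 4 or 5, at log2 fold changes of -0.31, -0.30 and -0.34 and adjusted p of 0.0505 to 0.0649 (0.0029 to 0.0649 over all alternatives).

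Slc16a6 held 2.28, 5.69, 6.77, 6.77 and 5.15 CPM in re-fed PLIN5 ASO 1 to 5. It held 2.90, 1.40, 7.34, 3.09 and 6.73 CPM in fasted PLIN5 ASO 1 to 5. The fasted values fell into a low set and the pair of clock-shifted libraries, which lay near or above the top of the re-fed range. The log2 fold change was 0.31 (SE 0.38, 95% confidence interval -0.48 to 1.11, edgeR adjusted p = 0.668). Without the clock-shifted libraries it was 1.12 (SE 0.30, 95% confidence interval 0.48 to 1.75) and passed (adjusted p = 0.0317), with 4 of the 5 re-fed libraries above the 3 fasted ones that were left. The adjusted p ranged from 0.0317 to 0.910 over all its alternatives.

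Slc16a1 held 25.01, 26.3, 24.6, 29.0 and 28.9 CPM in re-fed PLIN5 ASO 1 to 5. In fasted PLIN5 ASO 1 to 5 it held 27.7, 20.4, 72.2, 24.3 and 83.8 CPM. The 5 re-fed values lay close together, and 3 of the 5 fasted values lay near them. Its log2 difference of -0.77 (SE 0.32, 95% confidence interval -1.44 to -0.10, edgeR adjusted p = 0.148) turned to 0.15 without the clock-shifted libraries (SE 0.12, 95% confidence interval -0.10 to 0.40, adjusted p = 0.477).

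**Figure D2:**
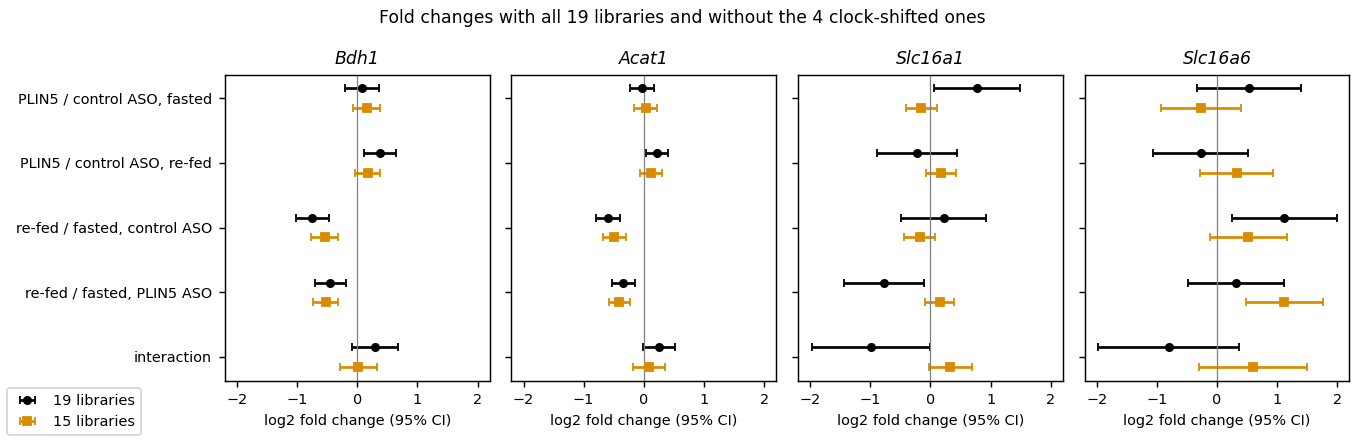
Log2 fold change with its 95% confidence interval (horizontal axes) for each gene in the 5 comparisons (rows), from edgeR with all 19 libraries (circles) and without the 4 clock-shifted libraries (squares). Bdh1 and Acat1 keep their falls on re-feeding, while the sign for Slc16a1 differs between circles and squares in all 5 rows.

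PLIN5 ASO against control ASO in fasted liver asks what the oligonucleotide changes in the state in which the liver makes most ketone bodies. No difference passed for the 4 genes. By edgeR 0 of the 4 were called, against 1.17% of all genes, and DESeq2 and limma on FPKM called 0 as well; 1 had an unadjusted p under 0.05, against 15.1% of all genes. Bdh1 averaged 446 CPM ± 42.9 (SD, n = 5) under PLIN5 ASO and 423 CPM ± 10.4 (SD, n = 4) under control ASO, or 0.08 in log2 fold change (SE 0.13, 95% confidence interval -0.20 to 0.36, adjusted p = 0.839). Acat1 averaged 682 CPM ± 64.4 (SD, n = 5) and 699 CPM ± 57.3 (SD, n = 4), or -0.04 in log2 fold change (SE 0.10, 95% confidence interval -0.23 to 0.16, adjusted p = 0.905). Omitting the clock-shifted libraries gave 0.15 for Bdh1 (SE 0.10, 95% confidence interval -0.06 to 0.37, adjusted p = 0.565), and the clock measure of each library (log2 Arntl minus log2 Dbp) as a covariate gave 0.23 (SE 0.10, 95% confidence interval 0.02 to 0.43, adjusted p = 0.275). Neither passed.

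The carriers varied more between all fasted PLIN5 ASO livers, 2 of them clock-shifted, than between fasted control ASO livers, of which 0 were clock-shifted. Among the other 3 fasted PLIN5 ASO libraries the SD was 3.62 CPM for Slc16a1 and 0.924 CPM for Slc16a6. In fasted control ASO it was 3.5 and 0.195 CPM, in a group that includes libraries 3 and 4, which may not be 2 mice. Slc16a1 averaged 45.7 CPM ± 29.9 (SD, n = 5) under PLIN5 ASO and 26.8 CPM ± 3.5 (SD, n = 4) under control ASO. Its log2 difference of 0.77 (SE 0.34, 95% confidence interval 0.05 to 1.48, edgeR adjusted p = 0.292) was -0.15 without the clock-shifted libraries (SE 0.12, adjusted p = 0.646). Slc16a6 averaged 4.29 CPM ± 2.598 (SD, n = 5) and 2.96 CPM ± 0.195 (SD, n = 4), or 0.53 in log2 fold change (SE 0.42, adjusted p = 0.589) and -0.27 without the clock-shifted libraries (SE 0.31, adjusted p = 0.782).

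PLIN5 ASO against control ASO in re-fed liver asks the same after a meal. Again 0 of the 4 genes were called by edgeR, against 1.38% of all genes, and 0 by DESeq2 and by limma on FPKM, while Bdh1 and Acat1 had an unadjusted p under 0.05, against 19% of all genes. Bdh1 averaged 328 CPM ± 45.9 (SD, n = 5) under PLIN5 ASO and 252 CPM ± 55.5 (SD, n = 5) under control ASO, or 0.38 in log2 fold change (SE 0.13, 95% confidence interval 0.12 to 0.64, adjusted p = 0.117). Acat1 averaged 539 CPM ± 44.2 (SD, n = 5) and 464 CPM ± 52.1 (SD, n = 5), or 0.22 in log2 fold change (SE 0.09, 95% confidence interval 0.03 to 0.40, adjusted p = 0.198). Control libraries 3 and 5 were the lowest of their group for both genes, and without the clock-shifted libraries the log2 fold changes were 0.18 for Bdh1 (SE 0.10, adjusted p = 0.408) and 0.12 for Acat1 (SE 0.09, adjusted p = 0.527). With each library's trend with transcript length taken out they were 0.36 and 0.22. Slc16a1 averaged 26.8 CPM ± 2.12 (SD, n = 5) and 31.2 CPM ± 10.8 (SD, n = 5; log2 fold change -0.22, SE 0.32, adjusted p = 0.754), and Slc16a6 averaged 5.33 CPM ± 1.85 (SD, n = 5) and 6.43 CPM ± 3.03 (SD, n = 5; -0.27, SE 0.38, adjusted p = 0.741). With the clock-shifted libraries omitted, both carriers turned sign, to 0.18 for Slc16a1 (SE 0.12, adjusted p = 0.485) and 0.33 for Slc16a6 (SE 0.29, adjusted p = 0.617).

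The interaction asks whether the response to re-feeding differs between PLIN5 ASO and control ASO. By edgeR 0 of the 4 genes were called, against 0.0226% of all genes, and DESeq2 and limma on FPKM also called 0; only Slc16a1 had an unadjusted p under 0.05, against 15% of all genes. The difference of the responses was 0.30 for Bdh1 (SE 0.18, 95% confidence interval -0.08 to 0.68, adjusted p = 0.439) and 0.25 for Acat1 (SE 0.13, 95% confidence interval -0.02 to 0.52, adjusted p = 0.369). The smaller falls of both enzyme genes under PLIN5 ASO were therefore not shown to differ from those under control ASO. Without the clock-shifted libraries the differences were 0.02 and 0.09 (SE 0.14 and 0.12, adjusted p = 0.974 and 0.849). For Slc16a1 the difference was -0.99 (SE 0.47, adjusted p = 0.328) and for Slc16a6 -0.81 (SE 0.56, adjusted p = 0.507), and without the clock-shifted libraries 0.33 and 0.60.

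Ordered by level, Bdh1 stood highest in fasted PLIN5 ASO, then fasted control ASO, re-fed PLIN5 ASO and re-fed control ASO. Acat1 had the same order but for the fasted groups, whose means changed places. For both genes the neighbours within a feeding state overlapped. For Slc16a1 the ranges of all 4 groups overlapped one another, and for Slc16a6 re-fed control ASO lay apart from fasted control ASO while the other pairs of groups overlapped.

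In the 4 clock-shifted libraries, looked at after their values were seen, the carriers were high and Bdh1 was low within its groups. Slc16a1 held 39.0 to 83.8 CPM in these libraries and 20.4 to 31.0 CPM in the other 15, with no overlap. Slc16a6 held 6.73 to 9.95 CPM in the 4 and 1.40 to 6.77 CPM in the 15. Within each of the 2 groups that hold such libraries, Slc16a6 did not overlap between them and the rest, at 9.46 to 9.95 against 3.62 to 4.94 CPM in re-fed control ASO and 6.73 to 7.34 against 1.40 to 3.09 CPM in fasted PLIN5 ASO. Bdh1 ran the other way, at 182 to 207 against 268 to 312 CPM in re-fed control ASO and 408 to 412 against 435 to 511 CPM in fasted PLIN5 ASO. Acat1 held 388 to 443 against 475 to 527 CPM in re-fed control ASO, but overlapped in fasted PLIN5 ASO, at 580.6 to 689.36 CPM in the clock-shifted libraries and 689.34 to 760.1 CPM in the rest. No test was made of this split, since the libraries were set apart by their own values. The share of all genes without overlap in it was not counted, so the split is not shown to be particular to these genes. In re-fed control ASO the chi-square per degree of freedom was 105 to 139 between these libraries and the rest, and 22.3 to 36.7 among the rest. In fasted PLIN5 ASO it was 51.3 to 234 and 19.5 to 134.

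**Figure D3:**
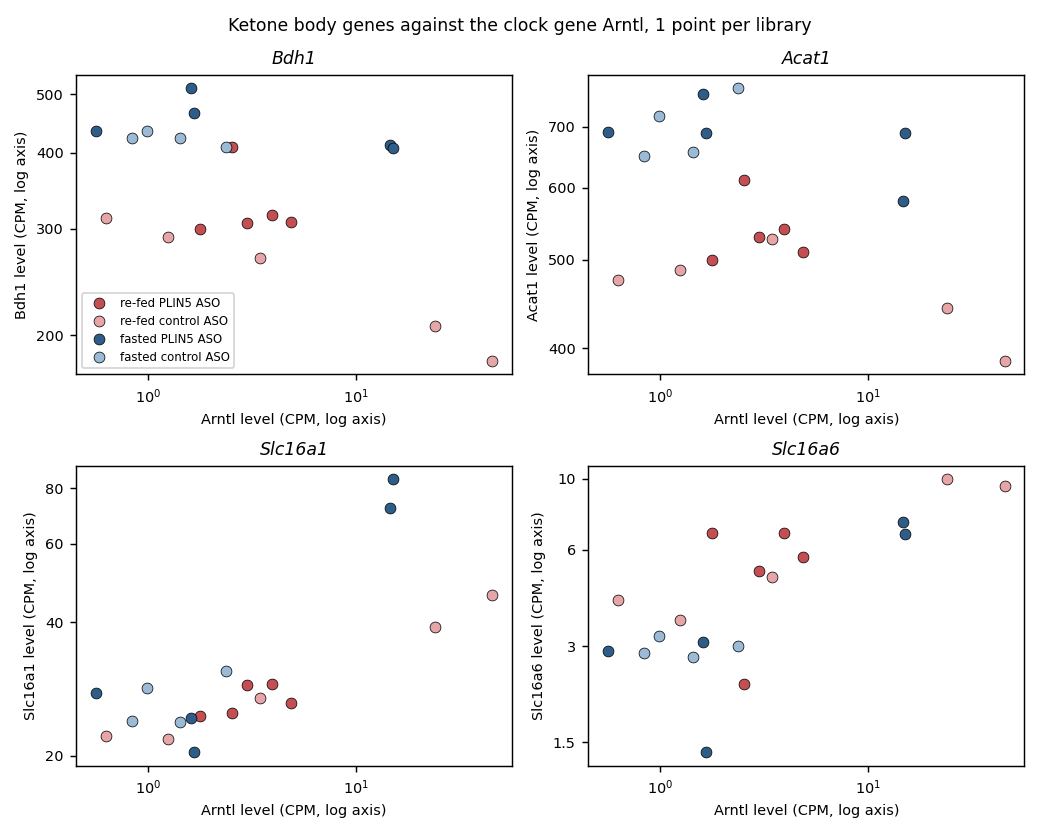
Level of each gene (vertical axes, CPM, log scale) against that of Arntl (horizontal axes, CPM, log scale), 1 point per library and 1 colour per group. The 4 points at the right are the clock-shifted libraries, where Slc16a1 held 39.0 to 83.8 CPM against at most 31.0 CPM elsewhere.

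Markers of other cell types moved in part with the same libraries. In fasted PLIN5 ASO 3 and 5 the summed level of 10 Kupffer cell and macrophage markers, all detected, was 439 and 305 CPM, against 169 to 217 CPM in libraries 1, 2 and 4 of that group. In re-fed control ASO 3 and 5 it was 159 and 215 CPM, within the 143 to 224 CPM of libraries 1, 2 and 4. The summed level of 4 cholangiocyte markers, all detected, in re-fed control ASO was 11.0 and 9.19 CPM for libraries 3 and 5 but 4.88 to 7.28 CPM for 1, 2 and 4. In fasted PLIN5 ASO it was 9.74 and 8.83 CPM for libraries 3 and 5 but 2.73 to 5.44 CPM for 1, 2 and 4. Sox9, 1 of these 4 markers, alone held 4.84 to 8.81 CPM in the clock-shifted libraries and 1.56 to 6.23 CPM in the rest. For 7 lymphocyte markers, all detected, the sums in the same order were 12.1 and 11.3 but 5.20 to 6.75 CPM in re-fed control ASO, and 8.99 and 5.69 but 3.48 to 4.89 CPM in fasted PLIN5 ASO. For 5 neutrophil and monocyte markers in the table, all detected, the sums were 3.99 and 3.84 CPM in fasted PLIN5 ASO 3 and 5 but 1.40 to 2.43 CPM in 1, 2 and 4, and in re-fed control ASO 1.84 and 1.95 CPM lay within the 1.68 to 2.40 CPM of the rest. For 7 endothelial markers, all detected, they were 108 and 99.1 CPM but 76.0 to 81.4 CPM in fasted PLIN5 ASO, and 79.4 and 116 CPM beside 102 to 137 CPM in re-fed control ASO. Markers of stellate cells and fibroblasts, 8 genes, all detected, did not follow these libraries. Their sum was 163.3 to 189.6 CPM in re-fed control ASO and 125.7 to 162.8 CPM in fasted control ASO, without overlap. Bdh1 and Acat1 fell in that comparison. Fasted PLIN5 ASO, at 163.8 to 252.3 CPM, also lay above fasted control ASO, a comparison in which neither gene was called. Under PLIN5 ASO the sum overlapped between feeding states, at 144 to 239.96 CPM after re-feeding and 164 to 252 CPM after fasting. In bulk liver RNA, fewer cells of a type and less RNA per cell cannot be told apart, and the part of these cells in the levels of the 4 genes was not tested.

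The promoters are shown because Slc16a1 and Slc16a6 were highest and Bdh1 lowest of their groups in the clock-shifted libraries. RefSeq windows (GRCm38.p6, 250 bases before to 50 after a start) were on hand for 2 of the 4 genes, with 1 for Slc16a1 and 2 for Bdh1. They were searched on both strands for the E-box CACGTG, which the CLOCK and ARNTL proteins bind, and for the D-box TTATGTAA or TTACGTAA, which the DBP protein binds. Capitals mark matches, and since none of the 3 windows held a D-box they mark only the E-box. The Slc16a1 window is chr3:104638414-104638713 on the plus strand, and the Bdh1 window shown is chr16:31422047-31422346 on the plus strand.
Slc16a1: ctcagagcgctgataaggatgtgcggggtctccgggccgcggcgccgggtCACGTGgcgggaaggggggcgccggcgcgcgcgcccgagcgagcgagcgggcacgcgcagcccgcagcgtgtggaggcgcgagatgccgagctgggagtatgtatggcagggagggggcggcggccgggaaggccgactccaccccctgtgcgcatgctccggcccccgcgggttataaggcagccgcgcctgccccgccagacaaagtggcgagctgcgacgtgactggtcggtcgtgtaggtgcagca
Bdh1: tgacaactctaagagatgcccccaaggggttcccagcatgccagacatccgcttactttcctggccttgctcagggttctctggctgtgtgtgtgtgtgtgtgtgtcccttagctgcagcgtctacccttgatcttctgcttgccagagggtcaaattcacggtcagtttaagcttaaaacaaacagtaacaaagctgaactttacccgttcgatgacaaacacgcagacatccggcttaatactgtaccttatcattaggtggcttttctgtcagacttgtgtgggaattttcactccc
The Slc16a1 window holds 1 E-box, whose first base lies at -200 from the start, and neither Bdh1 window holds one. An E-box was found in 7.15% of 32851 windows of the same length, and a D-box in 1.06% of them and in none of the 3 windows here. A match is a description of the letters and was not tested as a binding site.

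The genes whose pattern was most like each of the 4 were named by the root mean square difference of log2 CPM, each gene minus its own mean, over all 19 libraries. Nearest to Bdh1 were Acadl, Pex19 and Acot12, at 0.11, 0.12 and 0.13, where Bdh1 itself varied by 0.39. Acadl encodes a long-chain acyl-CoA dehydrogenase of mitochondrial fatty acid oxidation and averaged 269 CPM in re-fed PLIN5 ASO and 363 CPM in fasted PLIN5 ASO, and 230 CPM after re-feeding and 361 CPM after fasting under control ASO. Nearest to Acat1 were Slc48a1, a heme transporter gene, Acadl and Optn, an autophagy receptor gene, at 0.10, 0.11 and 0.11, where Acat1 itself varied by 0.27. Acadl was thus near both enzyme genes.

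Nearest to Slc16a1 were Crip2, Clock and Tab2, at 0.24, 0.26 and 0.27, where Slc16a1 itself varied by 0.54. Clock encodes the partner of the ARNTL protein and held 51.7 to 60.9 CPM in the clock-shifted libraries and 21.5 to 34.3 CPM in the other 15. Tab2, a signalling adaptor gene, held 90.8 to 117 against 51.2 to 66.4 CPM. Nearest to Slc16a6 were Dynll1, a dynein light chain gene, Leo1 and Sox9, at 0.25, 0.34 and 0.38, where Slc16a6 itself varied by 0.72. Dynll1 overlapped between the 4 libraries (8.20 to 14.9 CPM) and the 15 (2.64 to 10.8 CPM), as Slc16a6 did.

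Among 8 other genes of ketone body metabolism, listed with earlier results of these data known, 5 were tested. Re-feeding under PLIN5 ASO gave 2 rises and 0 falls among the 5 (median log2 fold change 0.68, against 0.00 over all genes), where 4.5% of all genes were called higher and 4.14% lower. Acat2, a cytosolic thiolase gene of sterol synthesis, rose by 0.68 (SE 0.16, edgeR adjusted p = 0.0108), and Bdh2, first described as a cytosolic hydroxybutyrate dehydrogenase gene, rose by 0.88 (SE 0.20, adjusted p = 0.00871). Under control ASO there were 1 rise and 0 falls (median 0.34, against 0.03 over all genes), where 6.42% of all genes were called higher and 6.82% lower. Acat2 rose by 0.57 (SE 0.17, adjusted p = 0.0322), while Bdh2 stood at 0.22 in log2 (SE 0.21, adjusted p = 0.511), and the difference of the responses of Bdh2 was 0.65 (adjusted p = 0.293). With the clock-shifted libraries omitted, Acat2 kept its call under control ASO (0.63, adjusted p = 0.0427) and lost it under PLIN5 ASO (0.54, adjusted p = 0.0792), where Bdh2 kept its own (0.59, adjusted p = 0.0115). The clock covariate also called Bdh2 higher under control ASO (0.53, adjusted p = 0.0306). Neither ASO comparison nor the interaction called any of the 5 genes in edgeR or DESeq2. In the fasted comparison 2, in the re-fed comparison 1 and in the interaction 1 of the 5 had an unadjusted p under 0.05, where the shares of all genes were 15.1%, 19% and 15%.

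Oxct1, which encodes the transferase that other organs need to burn ketone bodies and that the liver largely lacks, stood at 0.551 FPKM ± 0.111 (SD, n = 5) in re-fed PLIN5 ASO, 0.726 FPKM ± 0.105 (SD, n = 5) in re-fed control ASO, 0.696 FPKM ± 0.177 (SD, n = 5) in fasted PLIN5 ASO and 0.530 FPKM ± 0.199 (SD, n = 4) in fasted control ASO. Aacs, whose enzyme turns acetoacetate to lipid synthesis, averaged 32.2 FPKM ± 13.5 (SD, n = 5), 24.8 FPKM ± 14.6 (SD, n = 5), 11.8 FPKM ± 11.7 (SD, n = 5) and 14.99 FPKM ± 7.14 (SD, n = 4) in the same order. Its changes on re-feeding, 1.42 under PLIN5 ASO (adjusted p = 0.150) and 0.66 under control ASO (adjusted p = 0.524), did not pass. The clock covariate called Aacs higher under PLIN5 ASO (1.53, adjusted p = 0.0295). In that fasted group the clock-shifted libraries 3 and 5 held 1.37 and 2.89 FPKM of Aacs, and libraries 1, 2 and 4 held 11.1 to 30.7 FPKM.

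Among 15 other monocarboxylate carrier and chaperone genes 11 were tested. Re-feeding called 0 of the 11 under PLIN5 ASO by edgeR and by DESeq2, where 3 had an unadjusted p under 0.05, against 23.5% of all genes. Under control ASO it called 1 lower, Slc16a13, at -0.76 in log2 (SE 0.25, adjusted p = 0.0470), with 3 at an unadjusted p under 0.05, against 28.8% of all genes. That call was lost without the clock-shifted libraries (-0.68, adjusted p = 0.160), with the clock covariate (-0.86, adjusted p = 0.0522) and with the length trend removed (-0.74, adjusted p = 0.0592). Under PLIN5 ASO, Slc16a12 was called lower without the clock-shifted libraries (-0.89, adjusted p = 0.00201) and with the covariate (-0.53, adjusted p = 0.0443). The median of the 11 was -0.19 under PLIN5 ASO and -0.18 under control ASO, against 0.00 and 0.03 over all genes. In FPKM, Slc16a1 was not the most abundant of its family: Slc16a7, the gene of MCT2, averaged 20.1, Slc16a10 18.9 and Slc16a12 14.6 FPKM. In the ASO comparisons edgeR called 0 of the 11, with 2 in fasted and 0 in re-fed liver at an unadjusted p under 0.05 (15.1% and 19% of all genes), while DESeq2 called Slc16a11 lower in the fasted one and 0 in the re-fed one. The interaction called 0 by either tool, with 1 of the 11 at an unadjusted p under 0.05 (15% of all genes). Bsg, which encodes the chaperone that brings MCT1 to the membrane, averaged 237 FPKM with a log2 fold change of -0.16 on re-feeding under PLIN5 ASO (adjusted p = 0.186) and -0.18 under control ASO (adjusted p = 0.133). Bsg was called lower under control ASO without the clock-shifted libraries (-0.29, adjusted p = 0.0169) and with the covariate (-0.29, adjusted p = 0.00784).

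Of 19 genes that regulate ketone body synthesis or supply it with fatty acids, 8 fell and 0 rose on re-feeding under PLIN5 ASO, and 8 fell and 0 rose under control ASO. Of all genes 4.14% and 6.82% were called lower in these comparisons. The medians of the 19 were -0.45 and -0.53, against 0.00 and 0.03 over all genes. Hadhb and Hadha, the subunits of the mitochondrial trifunctional protein, changed by -0.95 (SE 0.10) and -0.70 (SE 0.08) under PLIN5 ASO, and by -0.91 (SE 0.10) and -0.63 (SE 0.09) under control ASO. Acadm, of medium-chain fatty acid oxidation, changed by -0.76 (SE 0.12) under PLIN5 ASO and by -1.02 (SE 0.12) under control ASO. Creb3l3, a fasting-induced transcription factor gene, changed by -0.50 (SE 0.08) under PLIN5 ASO and by -0.53 (SE 0.08) under control ASO. Cpt2, of fatty acid import into mitochondria, changed by -0.45 (SE 0.08) under PLIN5 ASO and by -0.68 (SE 0.08) under control ASO. The edgeR adjusted p was 0.00149 for Cpt2 under PLIN5 ASO and at most 0.000426 for each of the others. Ppara, named after its values were seen, changed by -0.44 under PLIN5 ASO (adjusted p = 0.0667) and by -0.57 under control ASO (adjusted p = 0.0178), with a difference of 0.14 between them (adjusted p = 0.784). Without the clock-shifted libraries 11 of the 19 fell under PLIN5 ASO and 6 under control ASO, and with the covariate 10 and 6. In both settings the call of Ppara moved to PLIN5 ASO: omitting the libraries gave -0.58 there (adjusted p = 0.00689) and -0.39 under control ASO (adjusted p = 0.0699), and the covariate gave -0.48 (adjusted p = 0.00555) and -0.37 (adjusted p = 0.0638). DESeq2 called Ppara lower under both. The interaction called 0 of the 19 by edgeR and DESeq2, where 3 had an unadjusted p under 0.05 (15% of all genes). The fasted and the re-fed ASO comparison each called 0 by edgeR, where 2 and 5 had an unadjusted p under 0.05 (15.1% and 19% of all genes). DESeq2 called Angptl4 higher in the fasted and Pdk4 lower in the re-fed one.

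**Figure D4:**
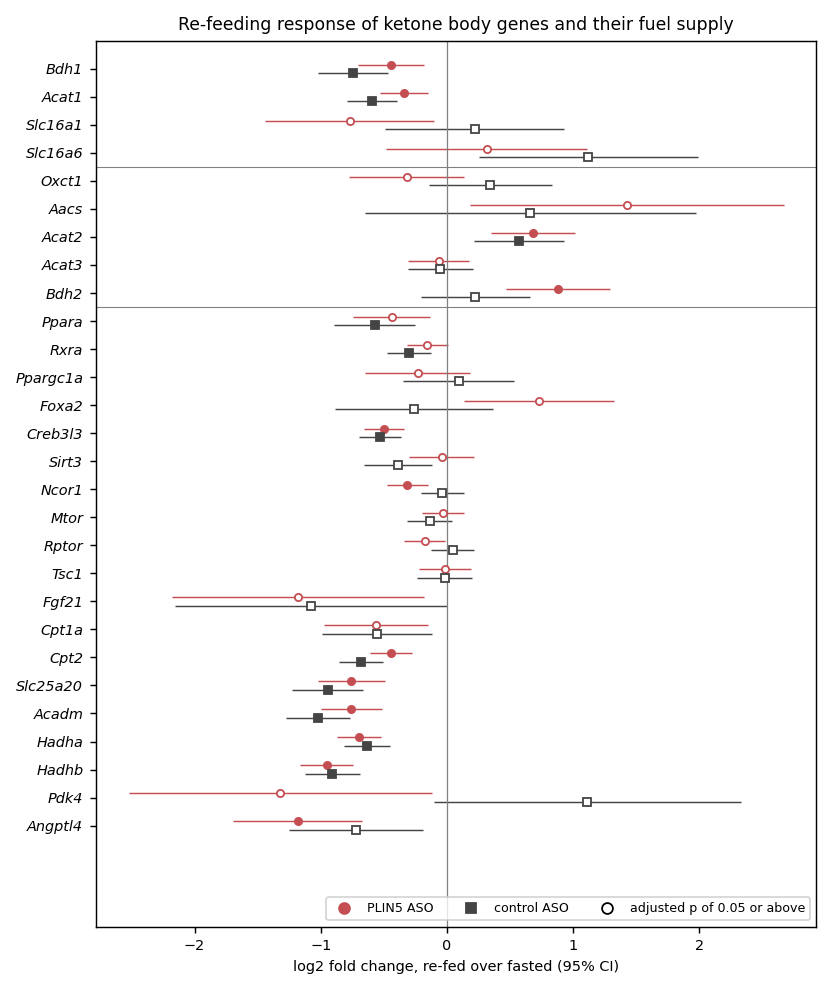
Log2 fold change of re-fed over fasted liver with 95% confidence intervals (horizontal axis) for the 4 genes (top), 5 other genes of ketone body metabolism (middle) and 19 regulators and fatty acid supply genes (bottom), under PLIN5 ASO (circles) and control ASO (squares). Filled symbols have an adjusted p under 0.05; the filled symbols lie left of 0 except for Acat2 and Bdh2.

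Of 11 genes of leucine and isoleucine breakdown, a pathway that shares Acat1 and also yields ketone bodies, 1 rose and 0 fell on re-feeding under PLIN5 ASO, and 0 rose and 3 fell under control ASO. Of all genes 4.5% were called higher and 4.14% lower under PLIN5 ASO, and 6.42% higher and 6.82% lower under control ASO. Acadsb, of isoleucine breakdown, rose by 0.25 (SE 0.07, adjusted p = 0.0389) under PLIN5 ASO. Omitting the clock-shifted libraries ended that call (0.21, adjusted p = 0.0918) and called Auh lower in its place (-0.22, adjusted p = 0.0383). Bckdha, a subunit gene of the branched-chain ketoacid dehydrogenase, Auh and Hsd17b10 fell by 0.32 (SE 0.08), 0.33 (SE 0.09) and 0.47 (SE 0.15) under control ASO, with adjusted p of 0.0144, 0.0188 and 0.0466. Of these 3, Auh alone was called lower without the clock-shifted libraries (-0.25, adjusted p = 0.0304), where Bckdha (adjusted p = 0.0706) and Hsd17b10 (adjusted p = 0.198) did not pass. The clock covariate called 0 of the 11 lower there, with adjusted p of 0.0628 for Bckdha, 0.0787 for Auh and 0.142 for Hsd17b10. With the length trend removed Hsd17b10 was lost (adjusted p = 0.106) and Ivd was called lower (-0.32, adjusted p = 0.0386). The medians of the 11 were -0.01 under PLIN5 ASO and -0.20 under control ASO, against 0.00 and 0.03 over all genes. In the ASO comparisons and the interaction edgeR called 0 of the 11, with 1, 3 and 1 at an unadjusted p under 0.05 in the fasted comparison, the re-fed comparison and the interaction (15.1%, 19% and 15% of all genes), and DESeq2 called Bckdha higher in the re-fed comparison and 0 in the other 2.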

How the data were processed

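Liver total RNA was sequenced in 19 libraries. Tools named in the submitters' processing notes are FastQC, HISAT2 (2.0.2), Cuffdiff (2.2.1), Subread and edgeR, with builds mm10 and GRCm38, and no role is stated for any of them. No source used here states strand use or how reads matching more than 1 gene were counted. The authors deposited read counts per gene symbol and, in a second table, FPKM per gene symbol. The counts were tested with edgeR 4.0.16 (R 4.3.3): TMM scaling, filterByExpr by group with a minimum count of 10, a single model with 4 group means fitted to 19 libraries, and two-sided quasi-likelihood F tests. The Benjamini-Hochberg adjustment ran over 13293 genes, with a threshold of 0.05. CPM use TMM-scaled library sizes. The biological coefficient of variation was 19.3%. The model was tested on simulated data, with libraries drawn independently of each other. The simulation built in neither clock-shifted libraries nor a close pair such as fasted control ASO 3 and 4, so it does not cover these features. Positions and lengths come from GENCODE (GRCm38), matched by symbol, and 27 symbols in the form of dates could not be matched. The 4 genes and all gene lists were chosen with earlier results of these data known, and some genes of the pathway are not reported here. Beyond the 4, up to 4 called genes with the smallest p per list and comparison were named, and the 3 genes most like each of the 4. Alternatives were RLE scaling, no or stricter filters, DESeq2 1.42.0, models restricted to a comparison's own groups, a block for replicate number, leaving out each library, and limma 3.58.1 on log2 FPKM (pseudocount 1 or 0.1, unfiltered or with a mean FPKM of 0.5 or more). Added after the data were seen were omission of the 4 clock-shifted libraries, a clock covariate (log2 Arntl minus log2 Dbp), fasted control ASO 3 and 4 merged as 1 sample, and offsets that take out a length trend in 25 bins. Genes without a length had no length trend taken out.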

Additional observations from a re-analysis of the deposited data

Results flagged for a closer look

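Bdh1 in re-fed PLIN5 ASO 1 stood at 409 CPM, with the next highest library of that group at 316 CPM, a gap of 0.848 of the group's whole range, above the critical value of 0.71 for 5 samples. It was the only value so far from its group among 16 sets of values (4 genes in 4 groups), where chance gives about 1 in 20. The same library was also the highest of its group for Acat1 (612 CPM) and the lowest for Slc16a6 (2.28 CPM). Without it Bdh1 changed by -0.54 on re-feeding under PLIN5 ASO.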

How the results depend on the processing

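Of 636 alternative values of the 4 genes, 605 kept the direction and the side of the threshold, 9 lost a call, 5 gained one and 17 turned sign. No alternative gave a call to any of the 4 genes in an ASO comparison or the interaction. With the 4 clock-shifted libraries omitted, the log2 fold changes that turned sign or gained a call were, in fasted liver, 0.029 for Acat1, -0.15 for Slc16a1 and -0.27 for Slc16a6, and in re-fed liver 0.18 for Slc16a1 and 0.33 for Slc16a6. On re-feeding they were 0.15 for Slc16a1 and 1.12 for Slc16a6 (called) under PLIN5 ASO and -0.18 for Slc16a1 under control ASO, and in the interaction 0.33 for Slc16a1 and 0.60 for Slc16a6. With the clock covariate they were 0.035 for Acat1 and -0.067 for Slc16a6 in fasted liver, 0.15 for Slc16a1 and 0.18 for Slc16a6 in re-fed liver, -0.42 for Slc16a1 on re-feeding under control ASO and 0.25 for Slc16a6 in the interaction. The cause was not tested. Slc16a6 on re-feeding under control ASO gained a call with DESeq2 (1.11), with only the groups compared (1.12) and with the replicate block (1.07).

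Leaving out 1 library at a time gave -0.081 to 0.017 for Acat1 in the fasted ASO comparison (above 0 without fasted PLIN5 ASO 3 or fasted control ASO 1) and 0.91 to 1.26 for Slc16a6 on re-feeding under control ASO. On re-feeding under PLIN5 ASO it gave -0.54 to -0.39 for Bdh1 and -0.39 to -0.30 for Acat1.

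Genes called in the fasted ASO comparison numbered 156, against 437 with DESeq2, 253 with the replicate block, 70 with limma and no filter, 33 with fasted control ASO 3 and 4 as 1 sample and 22 to 188 without 1 library. In re-fed liver they numbered 183, against 612 with DESeq2, 290 with the block, 4 with only the groups compared, 45 without the clock-shifted libraries, 50 without the length trend and 45 to 341 without 1 library. On re-feeding under PLIN5 ASO they numbered 1148, against 741 to 1232 without 1 library. Under control ASO they numbered 1759, against 1167 without the clock-shifted libraries, 1127 with 3 and 4 as 1 sample and 1112 to 2014 without 1 library. In the interaction they numbered 3, against 96 with DESeq2, 1 with the block, 0 to 3 without 1 library and 0 with no filter, limma with either pseudocount, the covariate, 3 and 4 as 1 sample, or no length trend. Whether the replicate numbers pair libraries was not settled, since pairs with different numbers were not compared. Over 27 pairs of libraries with the same number the correlation of deviations ran from -0.21 to 0.38, with 10 above 0.1. The block changed no other call for the 4 genes. Slc16a6 had as few as 43 counts in a library, and its coefficient of variation within a group was 34.6% in re-fed PLIN5 ASO, 47.1% in re-fed control ASO, 60.5% in fasted PLIN5 ASO and 6.58% in fasted control ASO. For the listed genes outside the 4, leaving out single libraries was not run.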
